A study of Mus musculus with 18 samples.

Results

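The 37 genes described here encode the machinery that copies DNA in S phase: proteins that mark and load origins, the MCM helicase and its activators, the PCNA clamp and its loader, polymerases and primase, factors that process lagging-strand fragments, enzymes that make deoxynucleotides, and the pair Uhrf1 and Dnmt1 that copies DNA methylation at the fork. They were chosen by name from known function, with earlier results of these data known, and all 37 were found among the 51290 genes of the deposited table. RNA levels were followed across 3 groups of 6 mouse samples. The malignant peripheral nerve sheath tumours (MPNST) carried PostnCre with Nf1 flox/flox and with Arf flox/flox, and their labels give no body site. The plexiform neurofibromas, benign tumours, were trigeminal nerves of genotype Nf1 flox/flox PostnCre+. The normal nerves were trigeminal nerves of genotype Nf1 flox/flox PostnCre-, so every animal carried floxed Nf1 and the nerves carried no Cre. The Cre was driven by the Postn promoter, which is used to delete floxed genes in the Schwann cell lineage. Nf1 encodes neurofibromin, which switches RAS off, while Arf, a product of the Cdkn2a locus, restrains growth through p53. Ages were not given in the sources used here, and the labels do not say whether each sample came from its own animal, so p-values measure the spread between these samples.

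Replication starts at origins that the origin recognition complex marks in G1, where Cdc6 and Cdt1 load the MCM helicase in an inactive form. At the start of S phase Mcm10, Cdc45 and the GINS complex turn it into a moving helicase, and polymerases follow on the PCNA clamp. Many of these genes are transcribed in late G1 under E2F factors and are nearly silent in resting cells, so in a tissue their RNA is known as a mark of cells that are in or near S phase. Adult peripheral nerve holds mostly non-dividing cells.

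RefSeq promoters (build GRCm38.p6, 250 bases before to 50 bases after each annotated start) were available for 32 of the 37 genes, as 39 promoters. They were searched on both strands for the E2F-type letters TTTCGCGC, TTTGGCGC, TTTCCCGC and TTTGCCGC, where matches may overlap. A match was present for 16 of the 32 genes (50%), against 704 of 27025 genes in the whole promoter table (2.6%), and in 41.0% of the 39 promoters, against 2.26% of 32851 promoters. The 6 promoters below are shown because they belong to members on which the results turn: the MCM subunits Mcm3 and Mcm6, the clamp partner Pclaf with the greatest change, the methylation cofactor Uhrf1, the GINS subunit Gins3 that went the other way, and Tyms, which had the smallest p. Capitals mark the E2F-type matches, and each sequence reads 5′ to 3′ on the gene's own strand.
Mcm3, chr1:20820263-20820562, minus strand: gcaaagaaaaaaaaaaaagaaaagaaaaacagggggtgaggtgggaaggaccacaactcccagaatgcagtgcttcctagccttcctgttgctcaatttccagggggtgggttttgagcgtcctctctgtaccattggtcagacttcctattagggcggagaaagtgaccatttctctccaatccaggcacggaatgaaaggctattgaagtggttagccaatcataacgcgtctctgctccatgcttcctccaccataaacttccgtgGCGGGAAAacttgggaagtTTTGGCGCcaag
Mcm6, chr1:128359656-128359955, minus strand: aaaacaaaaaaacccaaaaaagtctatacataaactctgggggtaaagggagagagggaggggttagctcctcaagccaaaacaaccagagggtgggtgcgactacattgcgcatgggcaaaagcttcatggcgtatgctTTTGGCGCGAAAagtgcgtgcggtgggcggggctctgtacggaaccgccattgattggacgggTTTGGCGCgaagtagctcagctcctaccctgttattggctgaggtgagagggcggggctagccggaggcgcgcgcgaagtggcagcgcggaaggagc
Pclaf, chr9:65890073-65890372, plus strand: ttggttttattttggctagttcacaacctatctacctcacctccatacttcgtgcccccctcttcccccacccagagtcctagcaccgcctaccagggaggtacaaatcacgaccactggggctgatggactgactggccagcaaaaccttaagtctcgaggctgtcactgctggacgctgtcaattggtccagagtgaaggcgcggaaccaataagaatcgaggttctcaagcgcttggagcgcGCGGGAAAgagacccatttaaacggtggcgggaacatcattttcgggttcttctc
Uhrf1, chr17:56304063-56304362, plus strand: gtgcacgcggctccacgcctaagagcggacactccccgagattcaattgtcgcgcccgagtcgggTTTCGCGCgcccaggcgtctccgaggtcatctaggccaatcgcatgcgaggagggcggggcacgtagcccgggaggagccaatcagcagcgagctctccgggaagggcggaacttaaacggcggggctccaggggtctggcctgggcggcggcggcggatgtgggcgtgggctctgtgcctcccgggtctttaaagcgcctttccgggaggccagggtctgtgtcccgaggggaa
Gins3, chr8:95633309-95633608, plus strand: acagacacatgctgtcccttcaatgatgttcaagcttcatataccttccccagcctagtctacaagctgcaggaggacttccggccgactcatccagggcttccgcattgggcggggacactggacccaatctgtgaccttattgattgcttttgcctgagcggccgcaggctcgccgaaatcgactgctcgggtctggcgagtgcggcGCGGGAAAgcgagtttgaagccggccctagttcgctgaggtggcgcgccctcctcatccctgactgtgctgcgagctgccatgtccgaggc
Tyms, chr5:30073576-30073875, minus strand: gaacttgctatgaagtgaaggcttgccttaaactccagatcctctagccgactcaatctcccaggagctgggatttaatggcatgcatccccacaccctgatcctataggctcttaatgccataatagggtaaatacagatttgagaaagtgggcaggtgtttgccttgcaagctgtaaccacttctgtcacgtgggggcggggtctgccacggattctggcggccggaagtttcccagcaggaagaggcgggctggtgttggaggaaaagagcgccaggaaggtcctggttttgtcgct

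Mcm6 held 3 matches, of which the first 2 overlap, and Mcm3 held 2, both after the annotated start. The single match of Pclaf began 5 bases before the start and ran past it, that of Gins3 began 41 bases before and that of Uhrf1 185 bases before. A second Uhrf1 promoter, chr17:56303087-56303386, is not shown and held 0 matches. Over the 16 genes there were 23 matches, which began at a median of 27 bases before the start, and 9 of them began at or after it. By role, matches were present in 4 of 5 MCM genes with a promoter, in 3 of 4 origin genes (Orc1, Cdc6 and Cdt1) and in 3 of 5 polymerase genes (Pola1, Pole2 and Pold1). None of the 5 nucleotide supply genes held one, and neither did the Tyms promoter above. A match is a string of letters in a window, not a bound site.

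The libraries held 13886399 to 23652959 estimated counts in MPNST, 15307987 to 20056513 in neurofibroma and 14303986 to 20335697 in nerve. Nf1 ran from 41.3 to 111 CPM in MPNST, from 64.5 to 86.5 CPM in neurofibroma and from 79 to 158 CPM in nerve, where CPM is a gene's count scaled to a common library size by TMM, the unit of every level below. A gene total cannot show whether floxed exons were lost, and Cdkn2a, whose products are counted together, ran from 0.284 to 605 CPM in MPNST. Marker lists showed that the MPNST libraries hold different tissues. In library 2, 7 salivary gland genes took 39.3% of counts and its TMM factor was 0.406, in library 3 skeletal muscle genes took 5.22%, and library 6 had 3450 CPM of pancreatic acinar and 3890 CPM of sympathoadrenal markers. Such markers also stood out in single libraries of the other groups. Skeletal muscle markers summed to 1710 CPM in neurofibroma library 1 and 408 CPM in nerve library 3, against group medians of 6.81 and 8.28 CPM. Nerve library 6 had Th at 155 CPM and Ddc at 91.9 CPM, against nerve medians of 7.03 and 2.1 CPM. The part of these tissues in the levels of the members was not tested. Summed sensory neuron markers ran from 8.02 to 3080 CPM in MPNST (median 18.9), from 6210 to 8290 CPM in neurofibroma and from 5150 to 10000 CPM in nerve. Summed Schwann cell markers ran from 62.7 to 1570 CPM in MPNST, from 9280 to 16500 CPM in neurofibroma and from 4260 to 11100 CPM in nerve, and none of these 18 marker genes was at 0 throughout a group. Against neurofibroma, 6 of 10 sensory neuron and 4 of 8 Schwann cell markers were called lower in MPNST, and their part in the changes of the replication genes was not tested. The nerve and neurofibroma samples are labelled as coming from an earlier series, so the tumour, the tissue sampled and the series cannot be told apart in either comparison with MPNST. In bulk RNA, fewer cells of a type and less RNA per cell cannot be told apart.

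Replication genes were higher in MPNST than in neurofibroma across nearly every role. Of the 36 members tested with edgeR, 32 rose and 1, Gins3, fell at an adjusted p below 0.05, while Gins4, Fen1 and Lig1 did not pass. Over all 16537 genes tested, 25.3% were called higher and 16.8% lower. The median log2 change of the members was 1.95, against 0.22 for all genes tested, and the changes ran from -1.28 for Gins3 to 6.24 for Pclaf. In 17 members all 6 MPNST libraries lay above all 6 neurofibroma libraries, an arrangement found in 7.43% of all genes tested. Orc1 had too few counts to be tested.

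MPNST set against normal nerve, which uses the same 6 MPNST libraries, gave 33 members that rose and again Gins3 that fell, of 36 tested. Fen1 and Lig1 did not pass. Over 16384 genes, 27.6% were called higher and 18.4% lower. The median log2 change of the members was 2.32, against 0.22 for all genes. No overlap between the groups was seen for 18 members that were higher in MPNST, against 8.75% of all genes tested. Without MPNST libraries 2, 3 and 6, which carried the salivary, muscle and pancreatic or sympathoadrenal markers, 35 of 37 members were called higher against neurofibroma (32% of all genes) and 35 against nerve (31.5% of all genes), with median log2 changes of 1.93 and 2.45. This left MPNST libraries 1, 4 and 5, which had the highest macrophage and T cell marker sums of the 6. The part of those cells was not tested.

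**Figure D1:**
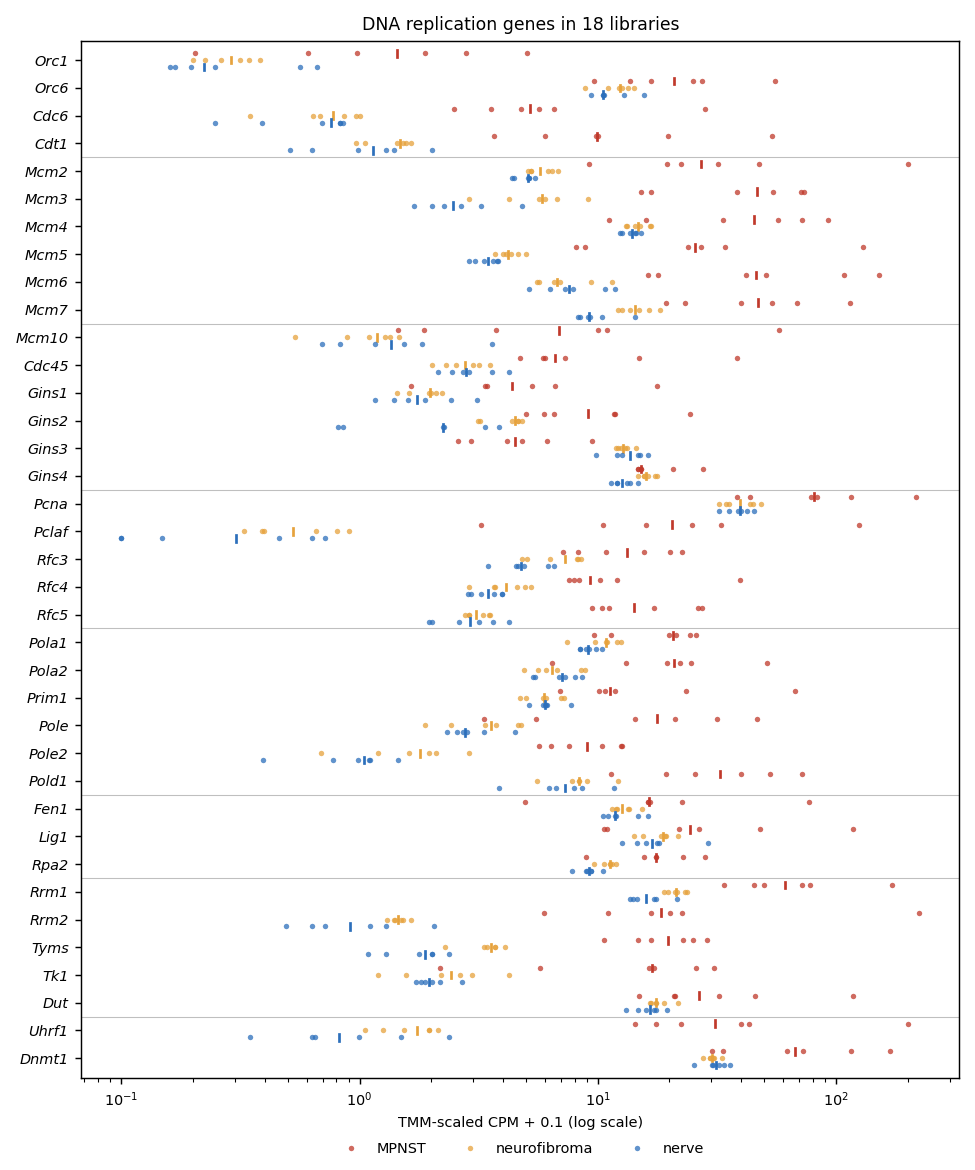
TMM-scaled CPM plus 0.1, on a logarithmic axis, for the 37 replication genes in 18 libraries; each point is a library, and the short vertical bar is the group median. The MPNST median lies to the right of both other medians for every gene but Gins3 and Gins4, while all 6 MPNST points lie above all 6 neurofibroma points for 17 genes and below them for Gins3.

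**Figure D2:**
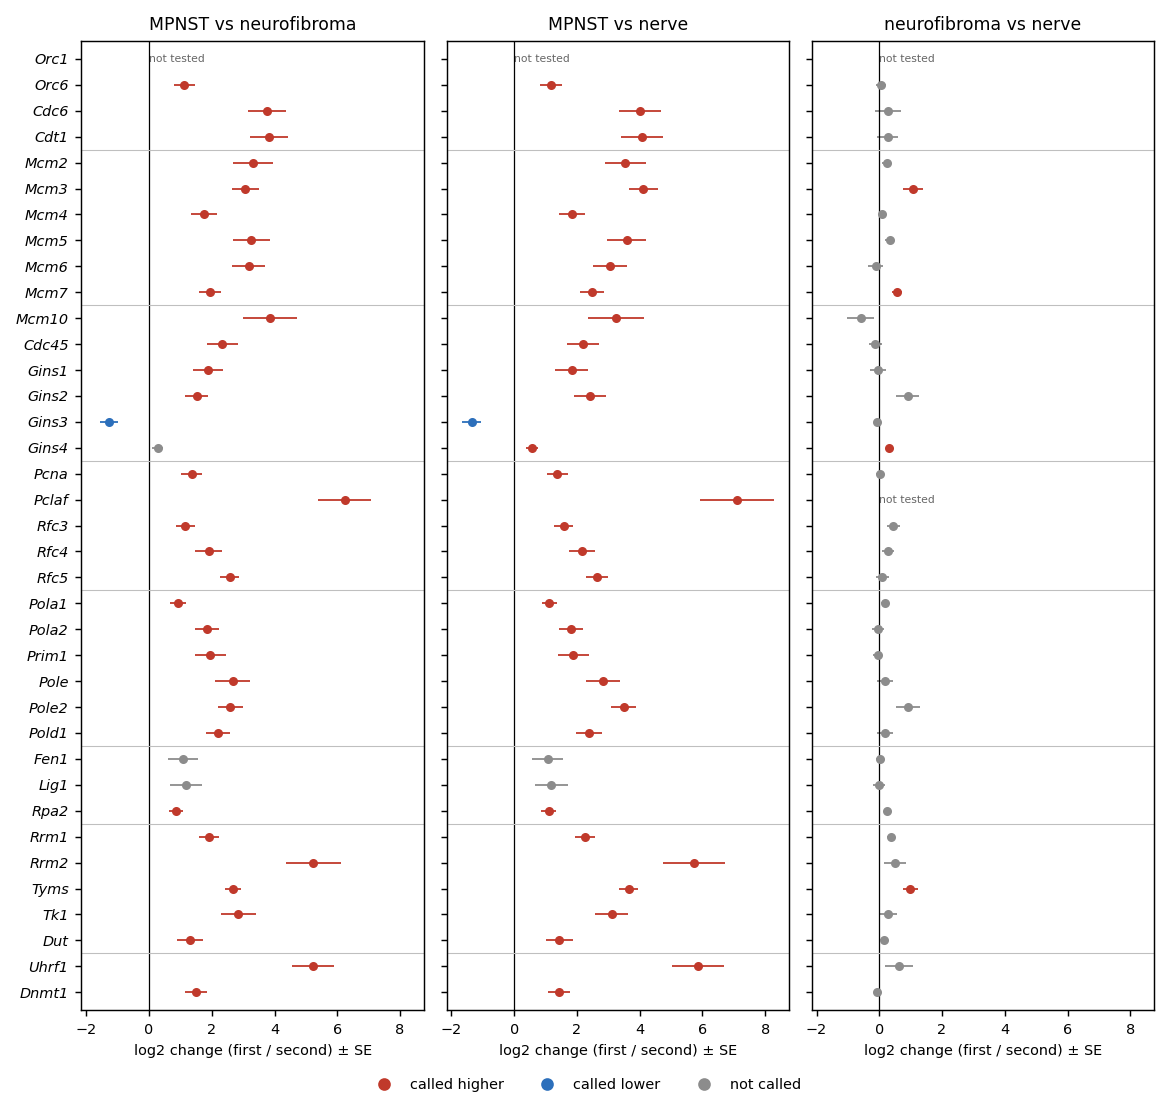
Log2 change with its standard error (SE) from edgeR in the 3 comparisons, for members ordered by role; red was called higher, blue lower and grey not called. In both comparisons with MPNST the values spread from below 0 for Gins3 to above 6 for Pclaf, whereas between neurofibroma and nerve they lie close to 0.

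Among the origin genes, Cdt1, the licensing factor that brings MCM to origins, had a lowest, median and highest level of 3.58, 9.85 and 53.8 CPM in MPNST, of 0.867, 1.38 and 1.54 CPM in neurofibroma and of 0.411, 1.04 and 1.91 CPM in nerve. All 6 MPNST libraries were above every other library. The log2 change was 3.82 ± 0.6 (SE) against neurofibroma (adjusted p = 0.000578) and 4.07 ± 0.68 against nerve (adjusted p = 0.000665). Cdc6, the ATPase that works with Cdt1, showed the same separation, with 2.39, 5.11 and 28.1 CPM in MPNST, 0.248, 0.672 and 0.903 CPM in neurofibroma and 0.147, 0.662 and 0.753 CPM in nerve. Its log2 change was 3.76 ± 0.62 against neurofibroma (adjusted p = 0.000806). Orc6, the smallest subunit of the origin recognition complex, moved less. It ran from 9.58 through a median of 20.8 to 55.1 CPM in MPNST, from 8.73 through 12.3 to 14.1 CPM in neurofibroma and from 9.28 through 10.4 to 15.6 CPM in nerve, and the groups overlapped. Its log2 change against neurofibroma was 1.12 ± 0.34 (adjusted p = 0.0207), a call that was lost when neurofibroma library 6 was left out (adjusted p = 0.0506; range over the fits without 1 library 0.00945 to 0.0506). Orc1, the largest subunit, had 1 to 104 counts in MPNST libraries, 2 to 5 in neurofibroma and 1 to 10 in nerve. With no filter on low counts its log2 change against neurofibroma was 3.2 (adjusted p = 0.0093; range over the alternatives that tested it 0.000514 to 0.0102). Without MPNST library 6, the log2 change against neurofibroma was 3.06 for Cdt1 and 2.92 for Cdc6.

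All 6 subunits of the MCM2-7 helicase, Mcm2 to Mcm7, rose in MPNST against both other groups, and for 5 of them, all but Mcm4, the MPNST libraries did not overlap with neurofibroma. Mcm3 had 15.1, 46.3 and 73.4 CPM as its lowest, median and highest level in MPNST, 2.77, 5.75 and 8.98 CPM in neurofibroma and 1.59, 2.36 and 4.71 CPM in nerve. Its lowest MPNST library stood above its highest neurofibroma library. The log2 change was 3.07 ± 0.43 against neurofibroma (adjusted p = 0.000297) and 4.12 ± 0.46 against nerve (adjusted p = 5.19e-05). Mcm4 changed least, with 11.1, 45.3 and 92.5 CPM in MPNST, 13.1, 14.6 and 16.7 CPM in neurofibroma and 12.3, 13.8 and 15.1 CPM in nerve. MPNST libraries 2 and 3, at log2 differences of -0.37 and 0.13 from the neurofibroma median, gave its overlap. The log2 change of Mcm4 was 1.75 ± 0.42 against neurofibroma (adjusted p = 0.00652). Mcm2 reached 201 CPM and Mcm5 130 CPM in MPNST library 6, and their log2 changes of 3.32 and 3.26 against neurofibroma became 2.31 and 2.39 without that library. Mcm6, whose promoter held the most matches, was highest in MPNST library 4 at 152 CPM. It had a median of 46.2 CPM in MPNST, 6.64 CPM in neurofibroma and 7.48 CPM in nerve, and a log2 change of 3.18 ± 0.53 against neurofibroma (adjusted p = 0.000792).

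The activators of the helicase did not move as a block. Cdc45, which joins MCM and GINS in the active helicase, had 4.61, 6.55 and 38.3 CPM in MPNST, 1.92, 2.67 and 3.44 CPM in neurofibroma and 2.03, 2.7 and 4.13 CPM in nerve, without overlap. Its log2 change was 2.34 ± 0.5 against neurofibroma (adjusted p = 0.00357) and 1.66 without MPNST library 6. Mcm10, a scaffold for activation, rose by a log2 change of 3.86 ± 0.87 (adjusted p = 0.00444), with library 6 at 57.6 CPM and the next MPNST library at 10.8 CPM. Without library 6 the change of Mcm10 was 2.56.

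Gins1, Gins2, Gins3 and Gins4 encode the subunits of GINS, a complex with equal parts of each. Their RNAs changed in different directions. Gins1 rose against neurofibroma by 1.88 ± 0.49 on the log2 scale (adjusted p = 0.00916; a change of 1.28 without MPNST library 6). Gins2 rose by 1.52 ± 0.37 (adjusted p = 0.00694). Gins3 had 2.5, 4.38 and 9.38 CPM as its lowest, median and highest level in MPNST, 11.8, 12.7 and 14.4 CPM in neurofibroma and 9.72, 13.6 and 16.1 CPM in nerve. Every MPNST library of Gins3 lay below every other library, including library 6, which was the highest for most members. Its log2 change was -1.28 ± 0.28 against neurofibroma (adjusted p = 0.00413) and -1.36 ± 0.3 against nerve (adjusted p = 0.00368). The Gins3 promoter holds an E2F-type match. Gins4 had 14.6, 15.1 and 27.5 CPM in MPNST, 14.7, 15.8 and 17.6 CPM in neurofibroma and 11.3, 12.6 and 14.7 CPM in nerve. Its MPNST and neurofibroma libraries overlapped, with a log2 change of 0.27 ± 0.18 (adjusted p = 0.25). Against nerve, Gins4 was higher by 0.58 ± 0.19 (adjusted p = 0.0277), a call lost in 4 of the 12 fits that left out 1 library, each without a nerve library (adjusted p 0.0568 to 0.0696; 0.0252 at the lowest over all 12). The call of Gins4 against nerve was also lost with RLE scaling, where its log2 change was 0.51.

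All 5 clamp and loader genes of the list rose. The loader subunits Rfc1 and Rfc2 are outside the list. Against neurofibroma they had log2 changes of -0.24 and 0.33 and did not pass (adjusted p = 0.204 and 0.202). Against nerve, Rfc2 was higher by 0.63 (adjusted p = 0.0304) and Rfc1 did not pass (adjusted p = 0.873). Pclaf, which binds the PCNA clamp, showed the greatest log2 change of the members, 6.24 ± 0.85 against neurofibroma (adjusted p = 0.000239). It had 3.12, 20.3 and 125 CPM in MPNST, 0.226, 0.428 and 0.806 CPM in neurofibroma and 0, 0.203 and 0.617 CPM in nerve, where 2 libraries were at 0. The groups did not overlap, and without MPNST library 6 the change was 5.27. Rfc5, a subunit of the clamp loader, had 9.37, 14.1 and 27.3 CPM in MPNST, 2.68, 3 and 3.44 CPM in neurofibroma and 1.85, 2.79 and 4.16 CPM in nerve. Its groups were also apart, with a log2 change of 2.57 ± 0.3 (adjusted p = 7.81e-05). Rfc3, another loader subunit, had 7.08, 13.2 and 22.4 CPM in MPNST, 4.71, 7.16 and 8.42 CPM in neurofibroma and 3.36, 4.66 and 6.44 CPM in nerve. Its MPNST libraries overlapped with neurofibroma but not with nerve, with log2 changes of 1.15 ± 0.3 (adjusted p = 0.0101) and 1.58 ± 0.31 (adjusted p = 0.00185). Rfc4 rose by 1.9 ± 0.42 on the log2 scale against neurofibroma. Pcna, the clamp itself, had a high level in every group and a smaller rise, with a median of 80.7 CPM in MPNST, 39.3 CPM in neurofibroma and 39.2 CPM in nerve. The log2 change of Pcna was 1.36 ± 0.34 against neurofibroma (adjusted p = 0.00832), and the groups overlapped.

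All 6 polymerase and primase genes of the list rose as well. Pole2, an accessory subunit of the leading-strand polymerase, had 5.58, 8.89 and 12.6 CPM in MPNST, 0.591, 1.69 and 2.79 CPM in neurofibroma and 0.295, 0.943 and 1.35 CPM in nerve. It was the only gene of this role without overlap against neurofibroma, and its 6 MPNST libraries lay closer together than those of the catalytic subunit Pole, which ran from 3.23 to 46.5 CPM. The log2 change of Pole2 was 2.59 ± 0.4 against neurofibroma (adjusted p = 0.00049) and 3.49 ± 0.4 against nerve (adjusted p = 6.04e-05). Pola1, the catalytic subunit of the polymerase that extends primers, had 9.58, 20.6 and 25.7 CPM in MPNST, 7.35, 10.8 and 12.4 CPM in neurofibroma and 8.29, 8.99 and 10.3 CPM in nerve. MPNST libraries 2 and 3 lay within the neurofibroma range. Pola1 rose by 0.93 ± 0.25 on the log2 scale (adjusted p = 0.0107). The other members of this role, Pola2, Prim1, Pole and Pold1, changed by 1.84 to 2.66 on the log2 scale, and Prim1, the primase subunit that makes RNA primers, changed by 1.22 rather than 1.95 without MPNST library 6.

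The lagging-strand genes were the weakest role. Rpa2, a subunit of the complex that coats single-stranded DNA, had 8.85, 17.5 and 28.2 CPM in MPNST, 9.58, 11.2 and 11.8 CPM in neurofibroma and 7.7, 9.06 and 10.4 CPM in nerve. MPNST library 2 lay below all the neurofibroma libraries, and the log2 change was 0.85 ± 0.22 (adjusted p = 0.00953). Fen1, the flap nuclease that trims Okazaki fragments, had 4.83, 16.3 and 77.1 CPM in MPNST, 11.4, 12.6 and 15.2 CPM in neurofibroma and 10.4, 11.8 and 16.2 CPM in nerve. MPNST library 3 was below every neurofibroma library and library 6 far above, with a log2 change of 1.07 ± 0.48 (adjusted p = 0.0924). Lig1, the ligase that seals the fragments, had 10.5, 24.2 and 118 CPM in MPNST, 14.1, 18.7 and 21.7 CPM in neurofibroma and 12.5, 16.7 and 28.9 CPM in nerve. MPNST libraries 2 and 3 differed from the neurofibroma median by -0.8 and -0.77 on the log2 scale, and the change of Lig1 was 1.19 ± 0.51 (adjusted p = 0.0766). Fen1 and Lig1 passed against neurofibroma without MPNST library 3 (log2 changes of 1.28 and 1.38), Lig1 also without library 2 (1.43), and they had changes of 0.38 and 0.51 without library 6, where neither passed. Over the fits without 1 library the adjusted p ran from 0.0239 to 0.293 for Fen1 and from 0.0371 to 0.226 for Lig1.

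Genes of nucleotide supply in the list all rose. Tyms, the thymidylate synthase that makes dTMP, had 10.5, 19.6 and 28.6 CPM in MPNST, 2.19, 3.46 and 3.97 CPM in neurofibroma and 0.983, 1.79 and 2.27 CPM in nerve. Its MPNST libraries stood above all others in a narrow band, and its p was the smallest of the members in both comparisons with MPNST. The log2 change of Tyms was 2.67 ± 0.26 against neurofibroma (adjusted p = 2.51e-05) and 3.65 ± 0.31 against nerve (adjusted p = 8.95e-06). Rrm2, the subunit of ribonucleotide reductase that rises in S phase, had 5.85, 18.3 and 224 CPM in MPNST, 1.2, 1.35 and 1.54 CPM in neurofibroma and 0.393, 0.815 and 1.96 CPM in nerve. The groups did not overlap, but library 6 alone gave 224 CPM, and the log2 change of 5.24 ± 0.89 (adjusted p = 0.000897) became 3.62 without it. Rrm1, the partner subunit, changed by 1.9 ± 0.32 and Tk1, thymidine kinase, by 2.85 ± 0.57. Dut, the dUTPase that keeps uracil out of DNA, had 14.8, 26.6 and 118 CPM in MPNST, 16.4, 17.4 and 21.6 CPM in neurofibroma and 13, 16.5 and 19.5 CPM in nerve. Its MPNST library 3 was below all neurofibroma libraries. The log2 change of Dut against neurofibroma was 1.3 ± 0.42 (adjusted p = 0.0271) and 0.71 without MPNST library 6, and the call was lost in 5 of 12 fits that left out 1 library, those without neurofibroma library 1, 2, 3, 5 or 6 (adjusted p 0.0508 to 0.0558; 0.0127 at the lowest over all 12).

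Of the methylation pair, Uhrf1, which recognises hemimethylated DNA behind the fork and brings Dnmt1 to it, had 14.3, 31.1 and 200 CPM in MPNST, 0.959, 1.65 and 2.04 CPM in neurofibroma and 0.246, 0.722 and 2.27 CPM in nerve. The lowest MPNST library was above the highest of the other 12. Its log2 change was 5.23 ± 0.68 against neurofibroma (adjusted p = 0.000173) and 4.26 without MPNST library 6. Dnmt1, the maintenance methyltransferase, had 30.1, 67.5 and 169 CPM in MPNST, 27.6, 29.9 and 33 CPM in neurofibroma and 25.3, 31.3 and 35.8 CPM in nerve. MPNST library 3, the lowest for Dnmt1, lay inside the neurofibroma range. Dnmt1 changed by 1.5 ± 0.35 against neurofibroma (adjusted p = 0.00535) and 1.43 ± 0.35 against nerve (adjusted p = 0.00658).

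Plexiform neurofibroma and normal nerve, both trigeminal, differed little in these genes. Of 35 members tested, 4 rose in neurofibroma (Tyms, Mcm3, Mcm7 and Gins4) and 31 did not pass, while 7.94% of all 16464 genes tested were called higher and 6% lower. Those whole-table counts, 1307 and 988 genes, ran from 618 (without neurofibroma library 4) to 1956 (without nerve library 6) and from 529 to 1861 under the same omissions, so the share beside the members is itself unstable. The count of 4 members is near that share and is no result about the list. No member fell by edgeR, by DESeq2 or by limma-voom, and 9 were higher and 0 lower at an unadjusted p below 0.05. The median log2 change was 0.19, against -0.02 for all genes. Tyms was higher by 0.99 ± 0.23 on the log2 scale (adjusted p = 0.0178), with neurofibroma library 1 at 2.19 CPM below nerve library 1 at 2.27 CPM as the only overlap. Tyms kept its call in each of the 12 fits without 1 library, with an adjusted p of at most 0.0425. Mcm3 was higher by 1.06 ± 0.32 (adjusted p = 0.0446) and Mcm7, with 12.1, 14.2 and 18.2 CPM in neurofibroma and 8.14, 9.07 and 14.2 CPM in nerve, by 0.56 ± 0.16 (adjusted p = 0.0343). Both overlapped. Gins4 was higher by 0.32 ± 0.1 (adjusted p = 0.0438), and all 6 of its neurofibroma libraries lay above every nerve library, the nearest pair at 14.7 CPM each after rounding, an arrangement found for no other member and in 4.69% of all genes tested. The calls of Mcm3 and Gins4 were each lost in 10 of the 12 fits without 1 library (adjusted p up to 0.104 and 0.116) and that of Mcm7 in 7 (up to 0.092). Gins2 and Pole2 had log2 changes of 0.91 each, with adjusted p of 0.108 and 0.135. Summed Schwann cell markers had a median of 13600 CPM in neurofibroma and 7070 CPM in nerve, with 5 of 8 markers called higher, and summed macrophage markers one of 215 CPM in neurofibroma and 94 CPM in nerve, with 2 of 8 called higher. Summed fibroblast markers had a median of 2580 CPM in neurofibroma and 1000 CPM in nerve, with 6 of 8 called higher and 5 of them without overlap. Their part in these changes was not tested.

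The 6 MPNST libraries differed widely among themselves. Library 6 was the highest for 30 of the 37 members, library 4 for 4 (Mcm6, Gins2, Pola1 and Tyms) and library 5 for 3 (Mcm3, Rfc3 and Pole2). Library 2 was the lowest for 24 members and library 3 for 10. The median log2 difference of a library's members from the neurofibroma median, with 0.5 added to each CPM, was 1.22 in MPNST library 1, 0.35 in library 2, 0.69 in library 3, 1.94 in library 4, 1.88 in library 5 and 2.98 in library 6. Members above every neurofibroma library numbered 34, 20, 25, 36, 35 and 36 in libraries 1 to 6. For single libraries the share of all genes in that position was not counted, so these numbers describe the members only. Uhrf1, Pclaf, Rrm2, Cdc6, Cdt1, Mcm2, Mcm3, Mcm5, Mcm6 and Tyms were among the 17 that were above every neurofibroma library in all 6, libraries 2 and 3 included.

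**Figure D3:**
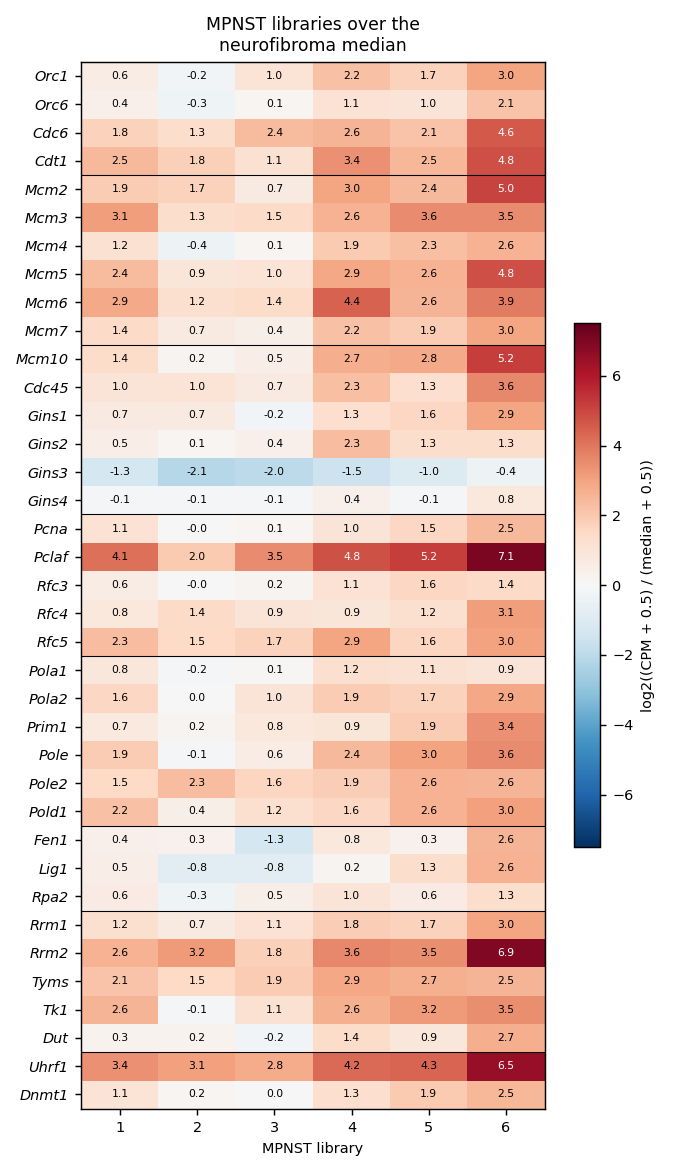
Log2 ratio of each MPNST library to the neurofibroma median for the 37 members, with 0.5 added to each CPM; red is above the neurofibroma median, blue below, and the printed number is the value. Library 6 is the darkest column, libraries 2 and 3 are the palest, and Gins3 is blue in all 6.

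Library 6 exceeded the median of the other 5 MPNST libraries by a median of 3.25-fold over the members. The excess ran from 1.07-fold for Pola1 to 15.8-fold for Mcm10, and it was above 4-fold for 16 members, among them Rrm2 (13.4-fold), Mcm2 (9.05-fold), Uhrf1 (9.04-fold) and Pclaf (7.89-fold). Tyms in library 6 had 22.7 CPM, 1.37-fold over that median. This library carried 3080 CPM of sensory neuron, 3890 CPM of sympathoadrenal and 3450 CPM of pancreatic acinar markers, but only 149 CPM of Schwann cell and 131 CPM of macrophage markers. Library 2, at the low end, had salivary gland genes at 39.3% of its counts. The part of these tissues in the levels of the members was not tested, and the values without libraries 2, 3 and 6 are given above. Macrophage markers were also higher in MPNST, with summed levels of 131 to 2530 CPM in MPNST, 127 to 282 CPM in neurofibroma and 35.3 to 184 CPM in nerve, and 8 of 8 were called higher against both. Among T cell markers, 6 of 6 tested were called higher against neurofibroma, with summed levels of 5.93 to 339 CPM in MPNST and 4.03 to 8.98 CPM in neurofibroma. The T cell sum was 339, 26 and 99.2 CPM in MPNST libraries 1, 4 and 5, and inside the neurofibroma range in libraries 2, 3 and 6. For B and plasma cell markers, 4 of 5 tested were called higher, with summed levels of 3.93 to 1690 CPM (median 169) in MPNST and 12.9 to 54.8 CPM (median 17.2) in neurofibroma. Fibroblast markers ran from 1380 to 18400 CPM in MPNST and from 1560 to 3620 CPM in neurofibroma, with 5 of 8 called higher. The part of these cells in the rise of the replication genes was not tested.

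Other genes of the same pathway moved in the same direction to a smaller extent. Of 49 further replication genes, 47 were tested against neurofibroma, 29 rose, 2 fell and 16 did not pass, with a median log2 change of 1.12. Over all genes tested, 25.3% were called higher and 16.8% lower. The count of 2 that fell is below that share and is no result about the list. Against nerve 30 rose and 2 fell of 48 tested, where 27.6% of all genes were called higher and 18.4% lower. Mcmbp, an MCM-binding chaperone, had 53, 76.1 and 131 CPM in MPNST, 19.1, 23.3 and 29.8 CPM in neurofibroma and 16.8, 19.2 and 21.6 CPM in nerve, without overlap and with a log2 change of 1.86 ± 0.22 (adjusted p = 9.02e-05). Esco2, the acetyltransferase that establishes cohesion at the fork, changed by 3.52 ± 0.52 (adjusted p = 0.000386). Both genes that fell had no overlap with neurofibroma. Rrm2b, the p53-inducible counterpart of Rrm2, had 16.2, 19.3 and 31 CPM in MPNST, 41.8, 57.3 and 65.7 CPM in neurofibroma and 46.1, 67.3 and 105 CPM in nerve, with a log2 change of -1.25 ± 0.21 against neurofibroma (adjusted p = 0.000762). Orc5, another subunit of the origin recognition complex, had 12.4, 14.9 and 17.9 CPM in MPNST, 28.2, 30.9 and 32.5 CPM in neurofibroma and 23.4, 32.3 and 37.6 CPM in nerve, with a change of -0.89 ± 0.15 (adjusted p = 0.000826). The remaining subunits Orc2, Orc3 and Orc4 changed by 0.29 to 0.37 and did not pass. Without MPNST libraries 2, 3 and 6, the 49 genes gave 35 higher and 4 lower against neurofibroma, where 32% of all genes were called higher.

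Genes that control entry into S phase were split. Of 26, 17 rose against neurofibroma and 9 did not pass, and 18 rose against nerve. Over all genes tested, 25.3% were called higher against neurofibroma and 27.6% against nerve. The count called lower was 0 by edgeR and by DESeq2 against neurofibroma and 2 by limma-voom, with 0 at an unadjusted p below 0.05. Cdk2, the kinase that pairs with cyclins E and A, had 17.1, 25.6 and 56 CPM in MPNST, 4.57, 5.87 and 7.35 CPM in neurofibroma and 2.52, 4.12 and 6.23 CPM in nerve, with a log2 change of 2.49 ± 0.3 (adjusted p = 9.81e-05). E2f4, an E2F of the repressive kind, changed by 1.34 ± 0.18 (adjusted p = 0.000191). E2f1, an activating E2F, had 4.89, 15.3 and 42.9 CPM in MPNST, 13.2, 15.1 and 20.3 CPM in neurofibroma and 11.2, 19.7 and 21.7 CPM in nerve. Its MPNST libraries lay on both sides of the others, with a log2 change of 0.28 ± 0.41 (adjusted p = 0.607). Ccne1, cyclin E1, was as spread, with 0.52, 4.33 and 31 CPM in MPNST, 7.04, 8.29 and 8.8 CPM in neurofibroma and a change of 0.13 ± 0.69 (adjusted p = 0.896). The other 7 that did not pass were E2f3, E2f5, E2f6, Rb1, Rbl2, Ccne2 and Tfdp2. Between neurofibroma and nerve the D cyclins Ccnd1, Ccnd2 and Ccnd3 and their partner Cdk4 rose and Tfdp2 fell, of 25 tested. Of all genes, 7.94% were called higher and 6% lower there, shares that were unstable as given above. With so few genes called, these counts are no result about the G1/S list. Ccnd1 had 99.1, 182 and 241 CPM in neurofibroma and 7.52, 34.5 and 41.7 CPM in nerve, without overlap and with a log2 change of 2.46 ± 0.37 (adjusted p = 0.00274). Of the further replication genes, Dctpp1, Pole3 and Pold2 rose in neurofibroma against nerve, by 0.71, 0.32 and 0.62 on the log2 scale, of 46 tested. That count is near the 7.94% of all genes called higher in this comparison and is no result about the list.

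All 20 mitosis genes rose in MPNST against neurofibroma (25.3% of all genes), with a median log2 change of 3.81. Against nerve, 19 of 19 tested rose (27.6% of all genes). Top2a, the topoisomerase of condensing chromosomes, had 10.6, 111 and 411 CPM in MPNST, 1.86, 3.91 and 5.55 CPM in neurofibroma and 0.684, 1.92 and 3.25 CPM in nerve, and Cdk1, the mitotic kinase, had 4.48, 33.5 and 89.2 CPM in MPNST, 0.564, 1.28 and 1.86 CPM in neurofibroma and 0.628, 1.32 and 3.64 CPM in nerve. Their log2 changes were 5.28 ± 0.75 and 4.97 ± 0.71 (adjusted p = 0.000294 and 0.000306). Without MPNST libraries 2, 3 and 6 all 20 were still called higher against neurofibroma (32% of all genes) and against nerve (31.5% of all genes). Between neurofibroma and nerve, edgeR called 0 of 17 mitosis genes, limma-voom 0 and DESeq2 2, and 4 were higher at an unadjusted p below 0.05. The mean log2(CPM + 1) of the 37 members was 4.03, 3.28, 3.38, 4.59, 4.56 and 5.76 in MPNST libraries 1 to 6, and 2.63 to 2.76 in neurofibroma and 2.45 to 2.55 in nerve. For the mitosis genes it was 3.42, 1.96, 3.15, 5.13, 4.67 and 6.29 in MPNST libraries 1 to 6, and 1.2 to 1.69 in neurofibroma and 1.16 to 1.48 in nerve. Libraries 6, 4 and 5 were the highest and library 2 the lowest by either list.

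**Figure D4:**
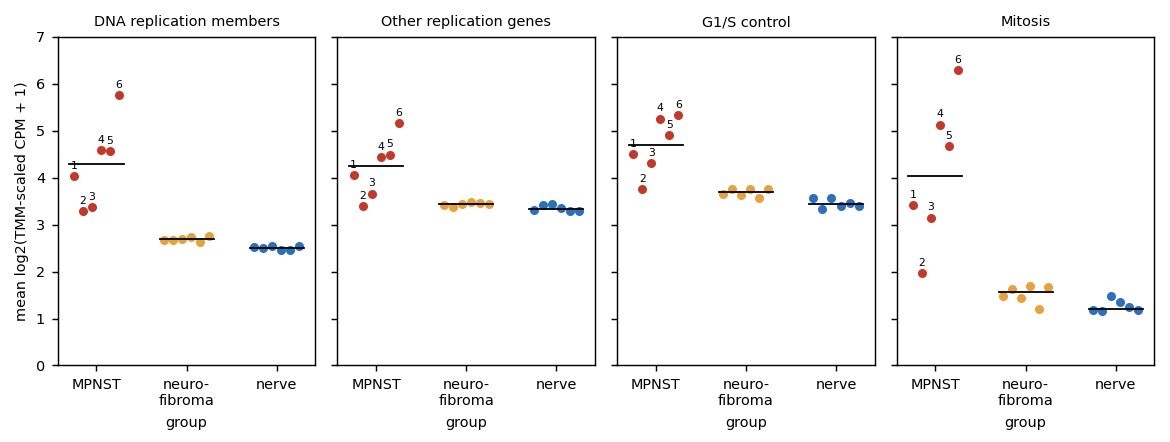
Mean log2(CPM + 1) of the 37 members and of 3 other gene lists in each library; points are libraries, numbered in MPNST, and the horizontal line is the group median. Library 6 is the highest point of each panel, with 5.76 for the members and 6.29 for mitosis, and neurofibroma and nerve form narrow bands. All 6 MPNST points lie above both bands for the members and for mitosis, but not for the other replication genes, where MPNST library 2 (3.4) lies inside both.

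The members kept similar profiles over the 18 libraries. The Pearson correlation of a member with the mean of the others was 0.99 for Mcm5 and 0.98 for Mcm2 at the top, and 0.76 for Lig1, 0.73 for Gins4, 0.72 for Fen1 and -0.52 for Gins3 at the bottom, over the 36 that could be scored. The genes outside the list with the most similar profile were Gm4739 and Asf1b (r = 0.989 each), Arhgap11a and Ncaph (0.988 each), Fbxo5 (0.987), Aurkb (0.986), Hmgb2 (0.985), Neil3 and Dtl (0.984 each) and Hnrnpa0 (0.983). Asf1b encodes a histone chaperone, Ncaph a condensin subunit and Aurkb a mitotic kinase. These are descriptions over 18 libraries that share the 3 group differences and the high level of MPNST library 6. Members whose promoter held an E2F-type match had a median log2 change of 2.59 against neurofibroma, with 13 of 15 tested called higher and Gins3 lower, and those without a match a median of 1.92, with 15 of 16 called higher. Matches were also present in 7 of 18 G1/S genes and in 9 of 38 further replication genes with a promoter, and in 1 of 16 mitosis genes.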

How the data were processed

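The 37 members and the pathway and marker lists were chosen with earlier results of these data known, so no list is independent evidence of its direction. Poly(A) RNA was made into stranded libraries, per the labels' protocols. The authors deposited expected counts per gene, estimated by Salmon; Salmon 1.4.0, FastQC, DESeq2 and build GRCm39 are named in the submitters' processing notes, with other settings not given in the sources used here. Estimated counts of genes with near-identical copies, and of overlapping genes, are uncertain. All 18 columns were matched to samples by title, 0 columns had no sample, and no pair was identical (lowest chi-square per degree of freedom within a group 18.8). Sample numbers are names only.

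Counts were rounded. Each pair of groups (6 libraries each) was fitted over the whole table by edgeR's two-sided quasi-likelihood test (edgeR 4.0.16, R 4.3.3; TMM factors, filterByExpr, glmQLFit and glmQLFTest), and p-values were adjusted by Benjamini-Hochberg over all genes tested. Levels are CPM scaled by TMM factors over all 18 libraries, so they need not match the fitted changes exactly, and precision of low levels is limited by counting error. Members named in full are, per role, those with the smallest p and the smallest absolute log2 change against neurofibroma, those called between neurofibroma and nerve and those not called; Cdc6, Mcm2, Mcm5, Mcm6, Mcm10, Gins1, Gins2, Gins3, Pclaf, Pcna, Rfc4, Pole, Prim1, Rrm1, Rrm2 and Tk1 were added after their values were seen, as were E2f1 and Ccne1 among those of the lists that were not called. Alternatives were RLE and upper quartile scaling, other filters, DESeq2 1.42.0, limma-voom (limma 3.58.1), 1 fit of all 18 samples, a robust fit, stricter thresholds and leaving out libraries. The fit was also run on simulated counts, drawn independently for each gene and library. Those lack the library-wide differences seen among the MPNST libraries, so no result above rests on that run. Of the marker genes, Muc19 was not found in the table.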

Additional observations from a re-analysis of the deposited data

Results flagged for a closer look

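In 4 of 123 sets of 6 libraries (37 members and 4 list means in 3 groups), 1 library stood apart from its group by more than Dixon's 95% limit on the log2(CPM + 1) scale; chance gives about 1 in 20. In MPNST library 6, Rrm2 reached 224 CPM (next MPNST library 22.5 CPM), Rfc4 39.6 CPM (next 11.9 CPM) and Cdc6 28.1 CPM (next 6.42 CPM). In neurofibroma library 1, Tyms was at 2.19 CPM, below the other neurofibroma libraries, of which the nearest was at 3.22 CPM. MPNST library 6 was also the library with the highest sympathoadrenal and pancreatic acinar markers of its group (3890 and 3450 CPM), and their part in these values was not tested. Neurofibroma library 1 had the highest skeletal muscle markers of its group (1710 CPM), and their part in its Tyms level was not tested.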

How the results depend on the processing

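No paired analysis was possible because the replicate numbers were given in accession order and pair nothing across groups. The counts of members called against MPNST held within 1.5 times under every alternative run, and Gins3 was the 1 member called lower in each. Without 1 library, members called higher numbered 31 to 34 against neurofibroma and 33 to 36 against nerve, and their median log2 change ran from 1.56 to 2.17 and from 1.91 to 2.54, lowest without MPNST library 6 in both. Between neurofibroma and nerve the count of 4 was not stable: it was 1 with no filter on low counts, 7 with limma-voom, 0 in 1 fit of all 18 samples, 0 at an adjusted p below 0.01, 1 with a minimum absolute log2 change of 1 (by construction a stricter rule), and 1 to 5 without 1 library; the cause of the others was not tested. With no filter, Orc6, Pola1, Rpa2 and Dut lost their calls against neurofibroma (adjusted p 0.0606, 0.052, 0.0569 and 0.0643). Of 862 values per comparison with MPNST, 839 kept direction and call in each, none reversed, and the median over all genes moved from 0.22 to between -0.01 (limma-voom) and 0.29 (upper quartile, against nerve). Members with few counts, such as Orc1 and Pclaf in nerve, are limited by depth.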
